A study of Homo sapiens with 6 samples.

Results

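The divergent gene pair SLC16A1 and SLC16A1-AS1 on human chromosome 1 was examined for RNA contacts of DHX9, an RNA helicase of the nucleus that opens double-stranded RNA. The cells were HEK293, an established line of human embryonic kidney origin, and the assay was FLASH, in which ultraviolet light links proteins to RNA and the linked fragments are sequenced after immunoprecipitation. Antibodies labelled DHX9-Rb (Abcam) and DHX9-mAb (Santa Cruz) were used with 2 biological replicates each. No treatment or genetic change of the cells is named in the labels, for any group. An IgG-Rb control with 2 replicates also belonged to the study but is not analysed here. Each antibody is represented by 1 list of peak regions called by the authors, which stands for both of its replicates and holds positions and strands without heights, so no replicate error, depth or background can be given for any peak.

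The peaks described here were chosen by their position on hg19, between 113454000 and 113610000 of chromosome 1. Minus-strand peaks up to 113500000 were assigned to SLC16A1. Plus-strand peaks from 113499000 onward, the plus-strand boundary below, were assigned to SLC16A1-AS1 and to transcription past it. The interval was selected on its numbers of peaks and of peaks shared by the antibodies, so these numbers, their ratios and their shares are a description and carry no test. In all, 128 of 21618 DHX9-Rb peaks and 57 of 6831 DHX9-mAb peaks lay in it.

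SLC16A1 encodes the monocarboxylate transporter MCT1, which carries lactate and pyruvate together with protons across the plasma membrane. SLC16A1-AS1 is a long noncoding RNA transcribed from the opposite strand, away from the SLC16A1 promoter. Double-stranded RNA can form within a transcript where repeats lie in opposite orientations. In human transcripts such repeats are most often Alu elements, a repeat family derived from the 7SL RNA of the signal recognition particle, and DHX9 is known for binding and unwinding such structures.

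GENCODE release 29, on GRCh38, a different assembly from that of the peaks, describes the pair as overlapping head to head. There SLC16A1 (ENSG00000155380.11) is a protein-coding gene of 45167 nt on the minus strand, from 112911847 to 112957013. SLC16A1-AS1 (ENSG00000226419.7) is an antisense RNA gene of 90641 nt on the plus strand, from 112956415 to 113047055. Their starts overlap by 599 nt. RefSeq, on the same assembly, gives SLC16A1-AS1 a length of only 7658 nt, so the annotations differ in how far plus-strand transcription is taken to reach. Each gene has 7 GENCODE transcripts, and the exons cover 10138 nt (11.2%) of SLC16A1-AS1 and 5312 nt (11.8%) of SLC16A1. The next protein-coding gene on the plus strand is LRIG2, which encodes a leucine-rich repeat membrane protein and begins 26153 nt after the last base of SLC16A1-AS1.

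Nearly all DHX9 peaks of the interval lay on the SLC16A1-AS1 strand and almost none on the SLC16A1 strand. On the plus strand there were 127 DHX9-Rb peaks covering 32074 nt, and 57 DHX9-mAb peaks covering 12887 nt. On the minus strand, over the SLC16A1 interval of 46001 nt, DHX9-Rb had 1 peak and DHX9-mAb had 0. That single peak lay from 113490384 to 113490545, was 162 nt wide and ended 9455 nt before the minus-strand limit of 113500000. The plus-strand peaks made up 0.587% of the DHX9-Rb list and 0.834% of the DHX9-mAb list. Over the whole lists, 52.3% of DHX9-Rb and 52.2% of DHX9-mAb peaks were on the plus strand. A balance over a whole list does not show how peaks of single loci divide between the strands. A single minus-strand peak allows no comparison of the antibodies between the strands.

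Minus-strand peaks were also absent past SLC16A1. Between 113500000 and 113610000, opposite the plus-strand peaks, both lists held 0 minus-strand peaks, although GENCODE places a minus-strand noncoding gene, AL357055.3, opposite the last 35369 nt of SLC16A1-AS1. In the other direction, the part of the SLC16A1 interval before the plus-strand boundary held 0 plus-strand peaks with either antibody. The nearest minus-strand DHX9-Rb peaks outside lay 71.9 kb before the interval and 706 kb after it. A list of called peaks has a detection limit that is not known here, and RNA levels of the pair were not measured, so an absent peak does not show an absent contact.

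**Figure D1:**
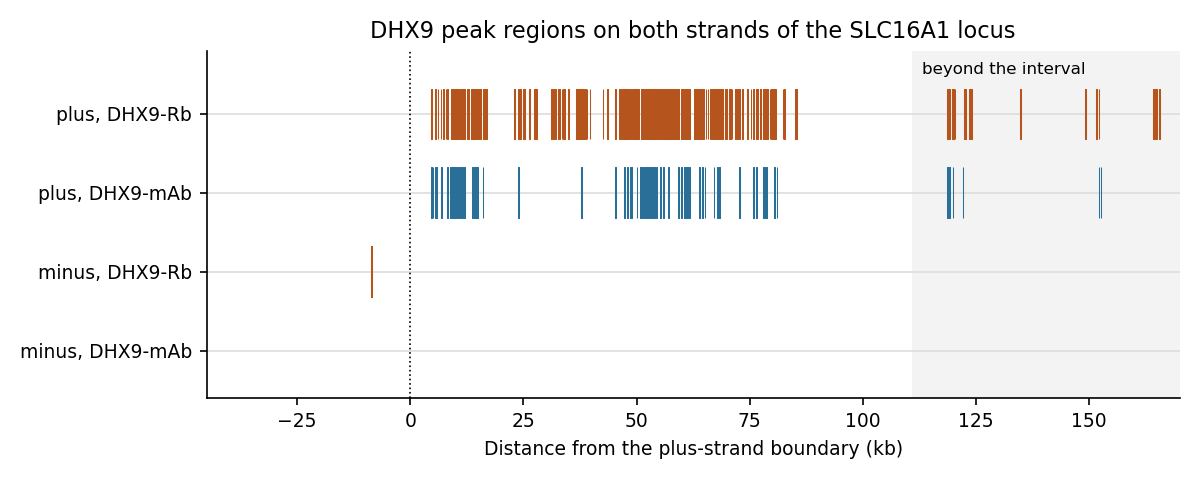
Peak regions as vertical bars, by strand and antibody, against distance in kb from the plus-strand boundary (dotted line at 0). Shading marks sequence beyond the interval. A reader should see a dense plus-strand run with both antibodies, a single minus-strand DHX9-Rb peak and an empty stretch before the next plus-strand group.

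The plus-strand peaks began at almost the same base with both antibodies and ran for about the length of the GENCODE gene. The first DHX9-Rb peak lay from 113503637 to 113503811 and the first DHX9-mAb peak from 113503630 to 113503872, 4637 and 4630 nt from the plus-strand boundary. The last DHX9-Rb peak lay from 113584037 to 113584363, and the last DHX9-mAb peak from 113579934 to 113580119. From first to last, the peaks spanned 80727 nt with DHX9-Rb and 76490 nt with DHX9-mAb. These spans are 89.1% and 84.4% of the GENCODE gene length, and 10.5 and 9.99 times the RefSeq gene length. Lengths were compared because positions of different assemblies cannot be set side by side.

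The peaks covered more sequence than the annotated exons hold. With DHX9-Rb the covered 32074 nt were 3.16 times the 10138 nt of SLC16A1-AS1 exons, and with DHX9-mAb the covered 12887 nt were 1.27 times that length. At least 21936 nt of DHX9-Rb peaks and 2749 nt of DHX9-mAb peaks therefore lay outside the exons that GENCODE lists, if the exons have the same lengths in both assemblies. Which peaks are intronic was not determined.

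Past the run, the plus strand carried no peak for a long distance. After the last peak, the plus strand held 0 peaks over 33177 nt with DHX9-Rb and over 37430 nt with DHX9-mAb, which takes in the last 25637 and 29881 nt of the interval. The next plus-strand peaks again began together, at 113617541 with DHX9-Rb and at 113617550 with DHX9-mAb, and are the first ones outside the interval. From there to 113664573, DHX9-Rb had 16 peaks. From there to 113651692, DHX9-mAb had 6 peaks, of which 4 overlapped a DHX9-Rb peak. Upstream, the nearest plus-strand peaks, from 113401905 to 113402084 with DHX9-Rb and from 113401852 to 113402099 with DHX9-mAb, lay 101552 and 101530 nt before the first peak of the run. The run was thus bounded on both sides by stretches without a plus-strand peak.

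Within the run, neighbouring DHX9-Rb peaks were a median of 195.5 nt apart, less than the median peak width of 234 nt. DHX9-mAb peaks were a median of 418 nt apart, with a median width of 203 nt. Of the 126 DHX9-Rb gaps, 102 were under 500 nt and 4 were over 2000 nt, and of the 56 DHX9-mAb gaps, 33 were under 500 nt and 6 were over 2000 nt. The widest DHX9-Rb gap, 5943 nt after 113515906, held no DHX9-mAb peak either. The next 4 DHX9-Rb gaps, of 1707 to 3131 nt, also held 0 DHX9-mAb peaks. Each of them lay inside a wider DHX9-mAb gap or past the last DHX9-mAb peak, so these zeros restate where DHX9-mAb peaks were sparse. The widest DHX9-mAb gap, 13745 nt after 113522996, held 17 DHX9-Rb peaks covering 3895 nt. DHX9-Rb had more peaks in the run as a whole, 127 against 57, and whether that accounts for this gap was not tested.

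With both antibodies, the 10 kb window with the most peaks lay in the middle to later part of the run. In windows of 10 kb counted from the plus-strand boundary, DHX9-Rb had 9, 13, 9, 15, 15, 24, 20, 17 and 5 peaks from 0 to 90 kb. DHX9-mAb had 10, 9, 1, 1, 4, 15, 10, 5 and 2. Both antibodies had their highest number from 50 to 60 kb, where DHX9-Rb peaks covered 71.3% and DHX9-mAb peaks 36.2% of positions. DHX9-mAb had a further high stretch at the start of the run, from 0 to 20 kb, and few peaks between. The first peaks lay 4637 nt (DHX9-Rb) and 4630 nt (DHX9-mAb) from the boundary, so the first window is partly empty by construction. Its 10 DHX9-mAb peaks were closer together than that number shows. The windows therefore do not settle where in the run DHX9-mAb peaks were most crowded.

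The ratio of the antibodies varied along the run. From 0 to 20 kb there were 22 DHX9-Rb and 19 DHX9-mAb peaks, a ratio of 1.16. From 20 to 40 kb there were 24 DHX9-Rb and 2 DHX9-mAb peaks, a ratio of 12. From 40 to 50 kb there were 15 and 4, a ratio of 3.75. From 50 to 70 kb there were 44 and 25, a ratio of 1.76, and from 70 to 90 kb there were 22 and 7, a ratio of 3.14. These stretches were drawn after the numbers had been seen. The share of DHX9-Rb peaks with a DHX9-mAb partner was 63.6%, 8.33%, 40%, 59.1% and 27.3% in these 5 stretches. Fewer DHX9-mAb peaks leave fewer possible partners, so the share and the ratio are not separate measures.

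**Figure D2:**
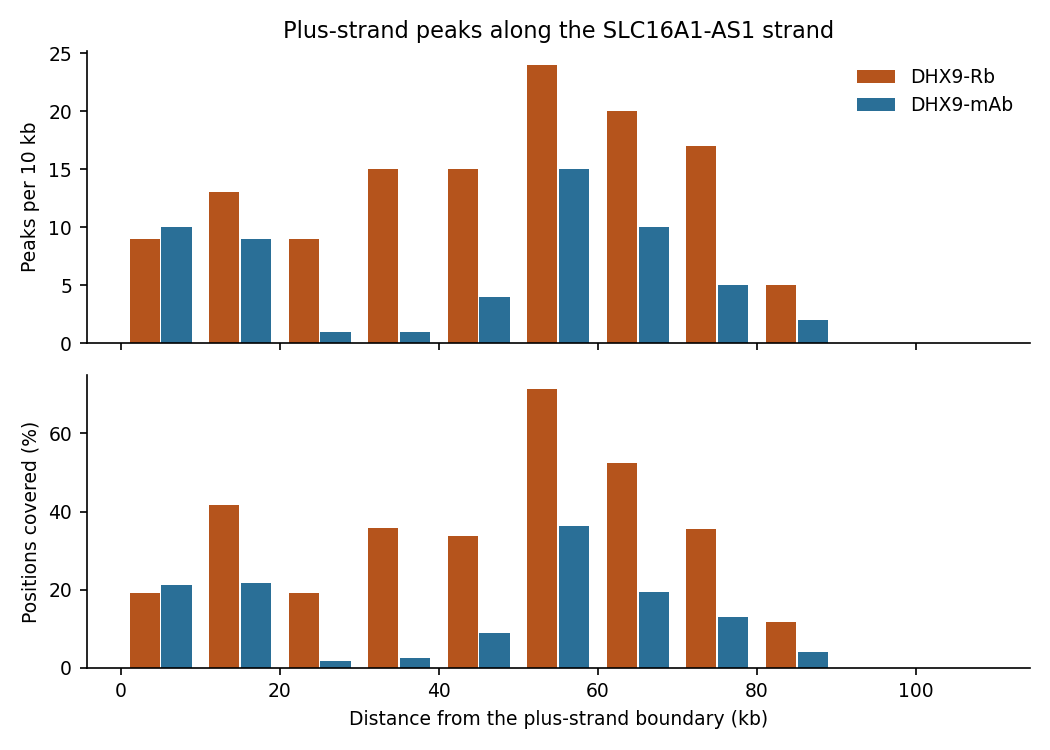
Plus-strand peaks (top) and share of positions covered in percent (bottom) per 10 kb from the plus-strand boundary, DHX9-Rb on the left and DHX9-mAb on the right of each pair of bars. Both are highest from 50 to 60 kb, and DHX9-mAb has 1 peak in each window from 20 to 40 kb.

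Most DHX9-Rb peaks had no DHX9-mAb partner, while nearly every DHX9-mAb peak had a DHX9-Rb partner. A partner is a same-strand peak of the other list that shares 1 nt or more. Partners were found for 54 of the 127 DHX9-Rb peaks (42.5%), against 28.5% of DHX9-Rb peaks elsewhere. They were found for 54 of the 57 DHX9-mAb peaks (94.7%), against 87.9% elsewhere. DHX9-Rb peaks covered 39.7% of the span of their run, so an overlap of 1 nt can be met there through crowding alone. With an overlap of at least 50% of both peaks, the DHX9-mAb share was 63.2%, against 62.1% in the whole list. The DHX9-Rb share was then 28.3%, against 19.6%. Crowding was not corrected for, so these contrasts do not show closer agreement of the antibodies in the run. The antibodies had 10320 nt in common, or 32.2% of the sequence marked with DHX9-Rb and 80.1% of that marked with DHX9-mAb. The 3 DHX9-mAb peaks with no partner lay at 113503967 to 113504100, 113564027 to 113564213 and 113579934 to 113580119, and the last of these is also the final DHX9-mAb peak of the run.

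Shared peaks coincided in place more than in their exact ends. Over the 54 shared DHX9-mAb peaks, the median overlap with a DHX9-Rb peak was 172.5 nt (22 to 427 nt). The starts differed by a median of 53.5 nt and the ends by a median of 61 nt, and in 7 peaks both ends lay within 50 nt. Of the 54, 18 lay wholly inside the DHX9-Rb peak and 4 wholly enclosed it. The longest overlap, 427 nt, joined the widest peak of the run in each list, from 113552216 to 113552810 with DHX9-Rb (595 nt) and from 113552195 to 113552642 with DHX9-mAb (448 nt). The next 4 overlaps were 325 to 360 nt long. Of these, 3 lay in the first 20 kb from the plus-strand boundary, among them the DHX9-Rb peak from 113508292 to 113508681 (390 nt), which encloses a DHX9-mAb peak of 345 nt.

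Plus-strand peaks had higher median widths than the whole lists, and the shared DHX9-Rb peaks had the highest. DHX9-Rb peaks had a median width of 234 nt (interquartile range 174 to 325.5) against 201 nt (152 to 273) in the whole list. DHX9-mAb peaks had a median of 203 nt (177 to 262) against 191 nt (146 to 256.5). DHX9-Rb peaks with a DHX9-mAb partner had a median of 292.5 nt and the other 73 a median of 198 nt. For DHX9-mAb the medians were 208 nt for the 54 shared peaks and 186 nt for the other 3. Width and sharing are linked by construction, since a wide peak is easier to overlap. Wide peaks were not always shared. Among the 5 widest DHX9-Rb peaks, that from 113532774 to 113533247 (474 nt) and that from 113548225 to 113548676 (452 nt) had no DHX9-mAb partner, and the first of them lay in the widest DHX9-mAb gap.

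**Figure D3:**
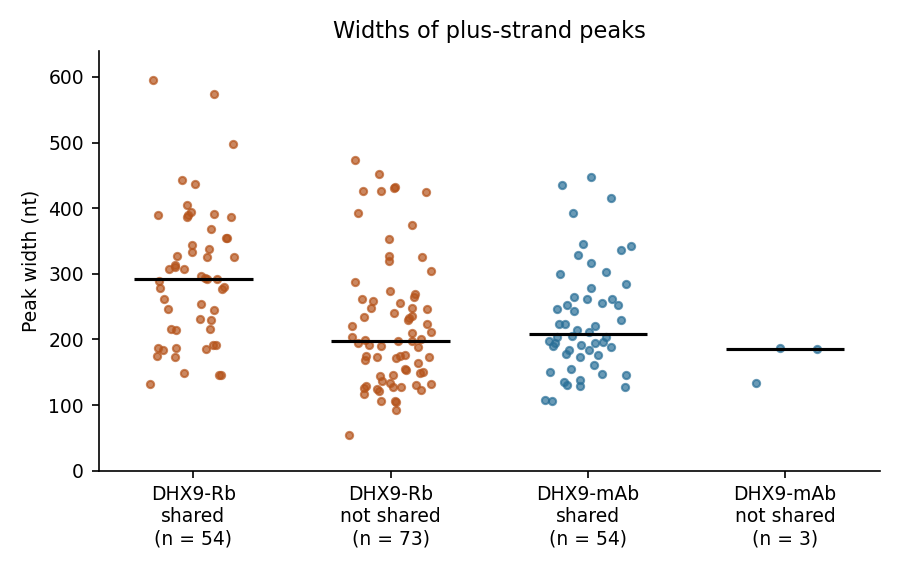
Width in nt of each plus-strand peak, split by antibody and by overlap with the other antibody. Points are peaks, spread sideways for clarity, and lines are medians (292.5 and 198 nt with DHX9-Rb, 208 and 186 nt with DHX9-mAb).

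Set against all other strand windows of 100 kb, the SLC16A1-AS1 strand ranked first in peak number with both antibodies. DHX9-Rb had peaks in 3805 strand windows and DHX9-mAb in 2070. The run of DHX9-Rb peaks, joined across gaps of at most 10 kb, was the largest of 4952 runs by peak number and the third by span. With DHX9-mAb the same rule split the peaks into runs of 20 and 37, from 113503630 to 113522996 and from 113536742 to 113580119, the larger of which ranked 2 of 2527 by peak number. These ranks restate why the locus was chosen.

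The antibody ratio of the whole run, 2.23 DHX9-Rb peaks for each DHX9-mAb peak, was below that of the lists, 3.16. In covered nucleotides the ratios were 2.49 in the run and 3.35 in the lists. Peaks on the same RNA are not independent of each other, and whether all peaks of the run belong to a single RNA was not determined. Each list also stands for both of its replicates, so no error can be put on these ratios.

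The windows closest to it in DHX9-Rb peak number, both on minus strands, had the same one-sided form. On chromosome 1 from 21406014 to 21500030 there were 110 DHX9-Rb and 49 DHX9-mAb peaks, a ratio of 2.24. On chromosome 16 from 89800955 to 89881723 there were 90 and 54, a ratio of 1.67. In all 3 windows the opposite strand held 0 peaks of either list. The SLC16A1-AS1 strand was covered over 32.1% of its window by DHX9-Rb and 12.9% by DHX9-mAb, against 27.5% and 11.3% in the chromosome 1 window and 28.2% and 13.1% in the chromosome 16 window. Its share of DHX9-Rb peaks with a DHX9-mAb partner, 42.5%, was near the 45.5% of the chromosome 1 window, and that of the chromosome 16 window was 60%. Its median DHX9-Rb gap of 195.5 nt was above the 151 nt and 112 nt of the others. Its widest DHX9-Rb gap of 5943 nt was below their 9680 and 13412 nt. Median widths of its DHX9-Rb and DHX9-mAb peaks were 234 and 203 nt. They lay between those of the chromosome 1 window (215 and 194 nt) and the chromosome 16 window (289.5 and 227 nt).

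**Figure D4:**
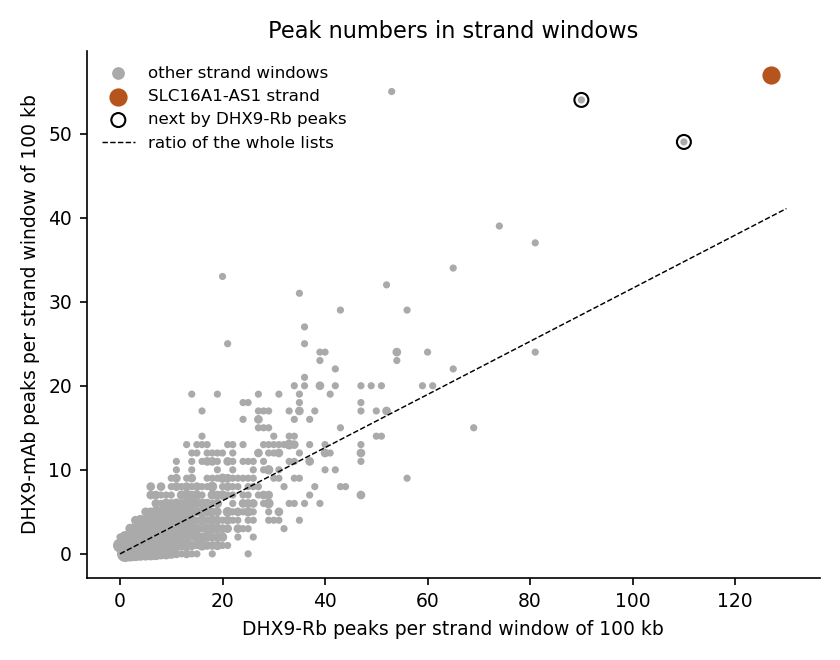
DHX9-Rb peaks (x axis) against DHX9-mAb peaks (y axis) in strand windows of 100 kb. Grey points are other windows, larger where more windows share a value, open circles the windows next by DHX9-Rb peaks, and the dashed line the ratio of the whole lists. The SLC16A1-AS1 strand, at 127 and 57, lies above that line and farthest along both axes.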

How the data were processed

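The authors deposited 1 peak list per DHX9 antibody, tied to both replicates by the labels, so replicates could not be separated. Reads were mapped with Bowtie2 2.2.6 to hg19, per the submitters' processing notes, and peaks were called with PEAKachu, per the second column of the deposited files. Its settings, the control, and the treatment of reads that map to many repeats are not given in the sources used, and the last could change peaks in repeat-rich RNA. The deposited values are first and last positions, counted from 1, with the score column empty. They hold no expression level, so cell identity was not checked.

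Peaks were shared at an overlap of at least 1 nt on the same strand. Strand windows took peaks by midpoint. Fisher's exact tests of the antibody balance had been planned and were run, but they are not reported, because they use the peak numbers that chose the locus. Gene models came from GENCODE release 29 on GRCh38 and gene lengths also from RefSeq. No position was converted between assemblies. Sequence features of the transcripts are not reported here.

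The members, lists and tests were chosen with earlier results of these data known. Named peaks are the first and last of each antibody, the minus-strand peak, and the 5 widest and 5 longest overlaps. Gap limits, unshared DHX9-mAb peaks and the 10 kb windows were added after the lists had been seen. The software was Python 3.11.15 with pandas 2.3.3, SciPy 1.17.1, matplotlib 3.10.9 and NumPy 2.4.6.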

Additional observations from a re-analysis of the deposited data

How the results depend on the processing

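Peak numbers per strand were the same by midpoint as by overlap (127 DHX9-Rb and 57 DHX9-mAb on the plus strand). Merging peaks within 50 nt left 105 and 50. The reach of the DHX9-mAb run depended on the gap allowed: 43378 nt across gaps of up to 10 kb and 76490 nt across gaps of up to 20 kb, which bridge its widest gap. That of DHX9-Rb was 62514 nt at 5 kb and 80727 nt at 10 and 20 kb. The shared share fell under stricter overlap. With an overlap of at least 50% of both peaks, 28.3% of DHX9-Rb and 63.2% of DHX9-mAb plus-strand peaks were shared (19.6% and 62.1% in the whole lists), and with 50% of the shorter peak 36.2% and 84.2% (25.5% and 81.7%). No paired analysis was possible because each list already combines its replicates, and for the same reason none could be left out. Depth is unknown, so it cannot be said which absent peaks reflect too few reads.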
